A study of Mus musculus with 22 samples.

Results

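Scavenger receptors for modified lipoproteins are membrane proteins that bind oxidized, acetylated or otherwise altered lipoproteins and carry them into the cell. Their transcripts were followed as 8 genes, Olr1, Stab1, Cd36, Msr1, Marco, Scarb1, Scarb2 and Lrp1, of 11807 genes named on the arrays. The members were chosen by name, and the choice used no threshold on measured values. They carry 14 of the 22626 probe sets, found through the platform's annotation, and the one with the highest average signal across the 22 arrays stood for its gene. RNA came from endothelial cells scraped with collagenase from the inner surface of C57BL/6 mouse aortas, with 1 array per sample. In 12 samples, opened aortas labelled wild-type were kept for 4 h in DMEM with fetal serum. The medium held the bacterial endotoxin LPS at 4 ng/mL (n = 3), oxidized LDL (oxLDL) at 50 µg/mL (n = 3), the oxidized phospholipid preparation oxPAPC at 50 µg/mL (n = 3), or no addition (n = 3). The other 10 samples were taken fresh from mice 4 weeks of age, either ApoE -/- mice labelled hyperlipidemic but without lesions (n = 4) or wild-type mice labelled normal-lipidemic (n = 6). Mice were on chow. The labels do not give the age of the aorta donors used for incubation, nor the number of animals behind a fresh sample, so the tests see no more than array-to-array spread, and incubation, handling and any age difference cannot be told apart in medium against fresh tissue. Loss of Apoe and hyperlipidemia go together in the knockout, and the stimuli were given to the opened vessel, not to isolated endothelial cells.

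Scavenger receptors take up modified LDL without the feedback by cell cholesterol that limits the LDL receptor, which is why macrophages that carry them can fill with lipid in the artery wall. OLR1 (LOX-1) is the receptor for oxidized LDL best known from endothelial cells. MSR1 and MARCO are class A receptors with collagen-like stalks, known mostly from macrophages. CD36, SCARB1 and SCARB2 share the class B fold. CD36 binds oxidized phospholipids and fatty acids, SCARB1 exchanges cholesterol with HDL, and SCARB2 sits in the lysosomal membrane. STAB1 is an endocytic receptor of sinusoidal and lymphatic endothelium and of macrophages, and LRP1 is a large receptor of the LDL receptor family.

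All values are log2 signals, a difference of 1 is a 2-fold change in signal, and ± gives the standard error of a fitted difference unless SD is written. Within a group, pairs of arrays had r = 0.9771 to 0.9907 over the genes, and pairs of a fresh and an incubated array had 0.9111 to 0.9378. Replicate 13 of the oxPAPC group stood apart from the other 2 oxPAPC arrays (r = 0.9771 and 0.979, against 0.9904 between replicates 11 and 12). For the genes that replicates 11 and 12 moved away from medium, the median share of that change seen in replicate 13 was 0.526 (845 genes). Its endothelial marker mean was 8.15, against 7.64 and 7.77 in replicates 11 and 12, and its smooth muscle mean 9.17, against 9.61 and 9.49. The calls with oxPAPC are given with and without it. Of the 17 endothelial markers, 16 lay above the 40th percentile of the array in every group, Robo4 being the exception, so the labelled cell type was present. Smooth muscle transcripts were present too. Their list mean (13 genes) was 9.05 to 9.38 with LPS, 8.78 to 9.24 with oxLDL, 9.17 to 9.61 with oxPAPC and 7.99 to 8.92 in medium, 9.83 to 9.99 in fresh ApoE -/- intima and 9.10 to 9.98 in fresh wild-type intima. The macrophage list mean (15 genes) was 5.54 to 6.13 with LPS, 5.81 to 6.18 with oxLDL, 5.78 to 5.87 with oxPAPC and 6.25 to 6.45 in medium, 4.72 to 5.51 in fresh ApoE -/- intima and 4.88 to 5.58 in fresh wild-type intima. In both fresh groups 7 of the 15 macrophage markers averaged below the 40th percentile, among them Cd68, Adgre1 and C1qa. In RNA from mixed cells, fewer cells of a type and less RNA per cell cannot be told apart.

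Receptors were called in the comparisons of incubation, LPS and oxPAPC, and neither oxLDL nor the ApoE genotype moved a receptor past the threshold, an adjusted p under 0.05 in limma. In medium against fresh wild-type intima, Olr1, Cd36 and Msr1 rose and Stab1 and Scarb2 fell, so 5 of the 7 members tested were called, a share of 71.4% where 58.7% of all genes tested were called (24.3% higher and 34.4% lower). Olr1 passed the level filter in that comparison only through medium, so its place in the count carries no weight. With LPS against medium, Stab1 and Cd36 fell (2 of 8 members, against 9.05% of all genes, 3.36% higher and 5.68% lower). With oxPAPC against medium, Olr1 and Stab1 fell (2 of 8, against 21.3%, of which 8.34% higher and 12.9% lower). With oxLDL against medium, 0 of 8 members were called, against 2.81% of all genes, and Marco and Scarb1 had an unadjusted p under 0.05 (2 of 8, as did 1635 of 7550 genes). Scarb1 passed the level filter there only through oxLDL, so its place in that count carries no weight. In ApoE -/- against wild-type fresh intima, 0 of 6 members tested were called, against 0.427% of all genes, and Stab1 and Lrp1 had an unadjusted p under 0.05 (2 of 6, as did 1328 of 7264 genes). Directly compared, LPS and oxLDL differed in 1 of 8 members, where 5.07% of all genes were called (2.21% higher and 2.86% lower with LPS). LPS and oxPAPC differed in 2 of 8, where 8.65% were called (4.69% higher and 3.96% lower with LPS). The oxLDL and oxPAPC arrays differed in 2 of 8, where 12.4% were called (7.8% higher and 4.57% lower with oxLDL). The shares for incubation and oxPAPC were close to those of all genes. The same shares of all genes apply to the counts of companion and marker lists given below. The 3 stimulus comparisons share the same medium arrays.

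**Figure D1:**
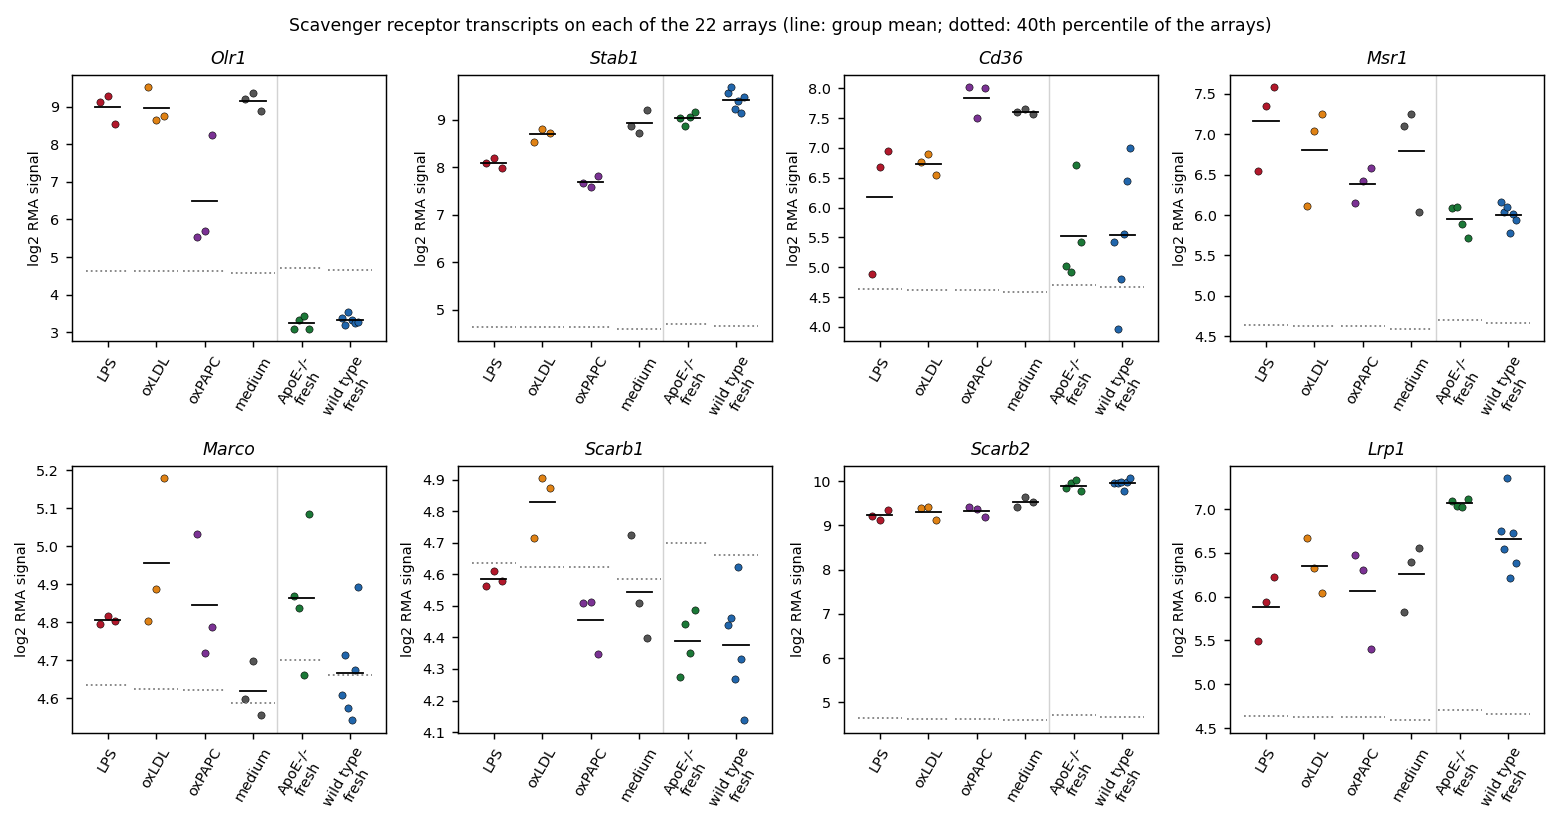
Log2 signal of each receptor on each of the 22 arrays (y axis, a separate scale per panel), by group (x axis). Points are arrays, solid lines are group means and dotted lines are the mean 40th percentile of the group's arrays. Olr1 lies at 3.08 to 3.53 on the 10 fresh arrays and at 5.54 to 9.53 on the 12 incubated arrays, while Marco and Scarb1 stay near the dotted lines throughout.

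**Figure D2:**
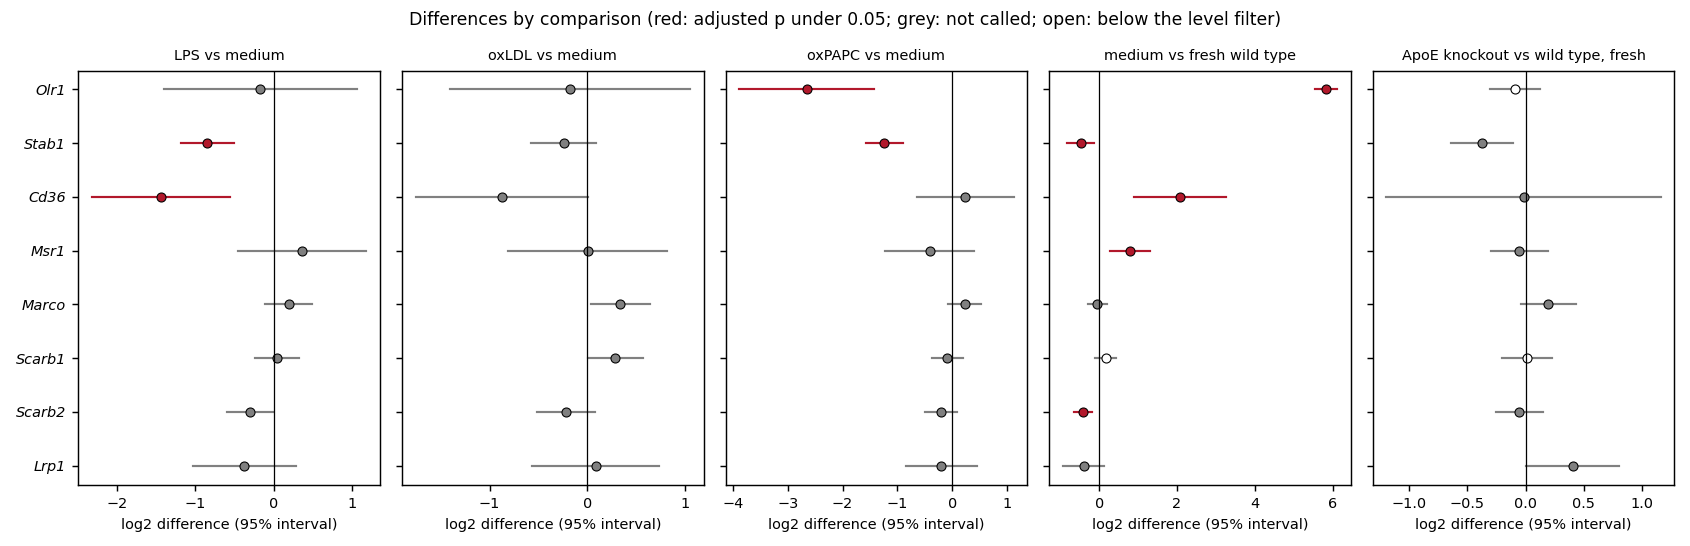
Log2 difference of each receptor (x axis, a separate scale per panel) with its 95% interval in 5 comparisons. Red points passed an adjusted p of 0.05, grey points did not, and open points lay below the level filter and entered no fit. Olr1 stands at 5.82 in medium against fresh wild type and at −2.65 with oxPAPC, and no point is red for oxLDL or for ApoE -/-.

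The 250 bases before the start of the 3 receptors that a stimulus moved are shown so that their letters can be set beside the responses described next. They are RefSeq sequences of build GRCm38.p6, in which 6 of the 8 members had an entry. Olr1 lies at chr6:129507166-129507415, Stab1 at chr14:31168642-31168891 and Cd36 at chr5:17835897-17836146, all on the minus strand and written 5′ to 3′ in the direction of the gene.
Olr1: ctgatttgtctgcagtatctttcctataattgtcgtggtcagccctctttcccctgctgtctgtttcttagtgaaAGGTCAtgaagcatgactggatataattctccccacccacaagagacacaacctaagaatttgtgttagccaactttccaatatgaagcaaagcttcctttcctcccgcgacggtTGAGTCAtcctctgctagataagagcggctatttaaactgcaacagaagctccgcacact
Stab1: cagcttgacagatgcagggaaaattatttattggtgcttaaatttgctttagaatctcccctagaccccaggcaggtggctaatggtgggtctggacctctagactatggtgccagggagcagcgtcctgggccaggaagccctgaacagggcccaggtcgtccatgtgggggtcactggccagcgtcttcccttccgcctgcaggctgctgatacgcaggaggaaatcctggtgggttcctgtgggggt
Cd36: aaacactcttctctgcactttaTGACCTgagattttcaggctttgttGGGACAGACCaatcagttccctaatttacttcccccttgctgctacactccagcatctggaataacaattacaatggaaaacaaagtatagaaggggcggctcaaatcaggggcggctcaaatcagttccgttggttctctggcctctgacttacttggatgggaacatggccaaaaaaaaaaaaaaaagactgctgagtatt
Capitals mark motif matches. The motifs searched on both strands were the AP-1 site TGANTCA, the NF-kB site GGGANNNNCC, the antioxidant response core TGANNNNGC and the nuclear receptor core AGGTCA. The TATA box, TATAAA, was searched on the given strand. None of the matches shown overlaps another. Olr1 held an AP-1 match starting at −60 and a nuclear receptor core at −175, counted back from the gene's start. Cd36 held an NF-kB match at −203 and a nuclear receptor core on the opposite strand at −228. Stab1 held none of the 5 motifs in this window. Of 32526 promoter windows of the same length, 6.73% held the AP-1 site, 17.7% the NF-kB site, 35.3% the antioxidant response core, 14% the nuclear receptor core and 7.55% the TATA box.

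Olr1, the endothelial receptor for oxidized LDL, had the largest difference of the 8 receptors, and it lay between medium and fresh wild-type intima. Olr1 measured 9.12, 9.27 and 8.55 with LPS (replicates 3, 4 and 10), 9.53, 8.65 and 8.74 with oxLDL (replicates 14, 15 and 16), 5.54, 5.70 and 8.26 with oxPAPC (replicates 11, 12 and 13), and 9.20, 9.37 and 8.88 in medium (replicates 9, 10 and 11). It measured 3.08, 3.33, 3.44 and 3.08 in fresh ApoE -/- intima (replicates 3, 4, 5 and 6), and in fresh wild-type intima the lowest, median and highest values were 3.20, 3.30 and 3.53. No incubated array overlapped a fresh array, and all 10 fresh arrays had Olr1 under their own 40th percentile. Because Olr1 entered this comparison only through medium, its difference is given as a bound: medium lay at least 22.5-fold above the mean 40th percentile of the wild-type arrays. The measured means differed by 5.82 ± 0.13 (SE, n = 3 and 6), a value that depends on a fresh signal not above background. Leaving out any of the 9 arrays gave 5.71 to 5.96.

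The lipid for which OLR1 is named did not change its transcript detectably. Olr1 averaged 8.97 ± 0.49 with oxLDL and 9.15 ± 0.25 in medium (SD, n = 3 each). The difference of −0.18 had a 95% interval of −1.41 to 1.05 (adjusted p = 0.882 in limma), which still holds a 2-fold change in either direction. LPS gave −0.17, with an interval of −1.40 to 1.06. oxPAPC, the isolated oxidized phospholipids, gave 6.50 ± 1.52 (SD, n = 3), a difference from medium of −2.65 ± 0.56 (SE) or 6.29-fold lower (adjusted p = 0.00909). All 3 oxPAPC arrays lay under all 9 arrays of the other incubated groups, but replicate 13, at 8.26, was close to them, and it showed 0.254 of the change of replicates 11 and 12. Without replicate 13 the difference was −3.53 ± 0.29 (adjusted p = 0.000102), and without replicate 11 or 12 it was −2.17 or −2.25 (adjusted p = 0.0398 and 0.0418). Every oxPAPC array still lay above every fresh array.

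Olr1 was higher with LPS than with oxPAPC by 2.48 ± 0.56 (adjusted p = 0.0199) and higher with oxLDL than with oxPAPC by 2.47 ± 0.56 (adjusted p = 0.0166), the difference of rank 1 among 7550 genes. LPS and oxLDL differed by 0.01 (95% interval −1.22 to 1.24). The difference from LPS lost its call without LPS replicate 3 or 4 (adjusted p = 0.0659 and 0.0812) and without oxPAPC replicate 11 or 12 (0.0877 and 0.0911). That from oxLDL lost it without oxLDL replicate 14 (0.0548) and without oxPAPC replicate 11 or 12 (0.0689 and 0.0742). Without oxPAPC replicate 13 the differences were 3.36 from LPS (adjusted p = 0.000132) and 3.35 from oxLDL (adjusted p = 0.000325). In the 12 incubated arrays Olr1 correlated with the endothelial marker mean at r = 0.80 across arrays that share the 4 group means, and in the 10 fresh arrays at −0.35. In the oxPAPC group the endothelial marker mean was 7.64 to 8.15, against 8.57 to 8.72 in medium. With oxPAPC 10 of 16 endothelial markers tested fell (median −0.98), where 12.9% of all genes fell. With the smooth muscle marker mean as a covariate the oxPAPC difference of Olr1 was −1.52 ± 0.93 (adjusted p = 0.488), and with the macrophage mean −2.52 ± 0.94 (adjusted p = 0.211). The part of cell makeup in the fall was not tested further.

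Of 13 tested genes that act with OLR1 in endothelial uptake and signalling, 6 rose and 2 fell in medium against fresh wild type (median 0.21, against −0.13 over all genes). The rises were led by Sele, the leukocyte adhesion molecule E-selectin (2.98 ± 0.40), Cybb, the catalytic subunit of the phagocyte NADPH oxidase (1.78 ± 0.49), and Vcam1, an adhesion molecule for monocytes (1.65 ± 0.16). With LPS against medium, 2 of 14 rose and 1 fell. Nfkbia, the inhibitor that NF-kB itself induces, rose by 1.04 ± 0.18, Cybb rose by 0.84 ± 0.14 and the stress kinase Mapk14 fell by 0.65 ± 0.14. With oxPAPC 1 of 14 rose and 6 fell (median −0.44, against −0.05 over all genes). Nos3, the endothelial nitric oxide synthase, fell by 1.44 ± 0.42, the monocyte chemokine Ccl2 by 1.33 ± 0.34, where the oxPAPC mean of 3.64 was below the 40th percentile, and Cyba, a partner subunit of the oxidase, by 0.97 ± 0.17, to a mean of 4.19 that was also below it. Ccl2 averaged below the percentile with LPS (4.47) and oxLDL (3.79) too, so its differences from medium carry no weight. No member of the list was called with oxLDL or in ApoE -/- intima by limma, and the smallest p-values belonged to Ccl2 (−1.18 ± 0.34, adjusted p = 0.0773) with oxLDL and Mapk14 (−0.42 ± 0.10, adjusted p = 0.095) in ApoE -/-. The genes most like Olr1 over the 22 arrays, of 7940 compared, were Bcl3, a regulator of NF-kB (r = 0.985), and Ch25h, which makes an oxysterol (r = 0.984). These arrays span the gap between fresh and incubated tissue. Within the 12 incubated arrays r was 0.97 and 0.91, while within the 10 fresh arrays, where Olr1 was near background, it was 0.05 and −0.03.

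Stab1, the scavenger receptor of sinusoidal and lymphatic endothelium, fell with LPS and with oxPAPC, and was present on every array. It measured 8.09, 8.20 and 7.98 with LPS, 8.54, 8.81 and 8.73 with oxLDL, 7.67, 7.59 and 7.81 with oxPAPC, and 8.87, 8.71 and 9.21 in medium. In fresh ApoE -/- intima it measured 9.05, 8.88, 9.05 and 9.17, and in fresh wild-type intima the lowest, median and highest values were 9.13, 9.43 and 9.70. The 3 LPS arrays and the 3 oxPAPC arrays each lay under all medium arrays and did not overlap each other, while oxLDL overlapped medium. LPS lowered Stab1 by 0.85 ± 0.15 relative to medium (1.80-fold, adjusted p = 0.0093) and oxPAPC by 1.24 ± 0.15 (2.37-fold, adjusted p = 0.000893). With oxLDL the difference was −0.24, with a 95% interval of −0.57 to 0.09. Both calls held with each array left out (LPS −0.96 to −0.71, oxPAPC −1.35 to −1.10), and replicate 13 of oxPAPC, which showed little of the change in Olr1, showed 0.859 of the change in Stab1. Without it the difference was −1.30 (adjusted p = 0.000792).

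Directly compared, Stab1 was lower with LPS than with oxLDL by 0.61 ± 0.15 (adjusted p = 0.0423), a call that ended with any of the 6 arrays left out (adjusted p 0.0549 to 0.129) and on cyclic loess values (−0.56, adjusted p = 0.061). It was 1.00 ± 0.15 higher with oxLDL than with oxPAPC (adjusted p = 0.0032), with each array left out too (0.94 to 1.08). LPS and oxPAPC differed by 0.40 ± 0.15 (adjusted p = 0.133), with ranges that did not touch. In medium, Stab1 was 0.48 ± 0.16 below fresh wild type (adjusted p = 0.0214), although the highest medium array overlapped the wild-type range. This small fall lost its call without medium replicate 9 or 10 (adjusted p = 0.0738 and 0.106) and after centring each array on its median (−0.38, adjusted p = 0.0541), which moved the median of all genes in that comparison to −0.03, against −0.13 as deposited. ApoE -/- intima gave −0.38 ± 0.12 relative to wild type, and the adjusted p was 0.155.

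Stab1 was compared with markers of the cells in the sample. Its closest companions over the 22 arrays were Vwf, von Willebrand factor of endothelial granules (r = 0.969, and 0.964 within the incubated and 0.904 within the fresh arrays), and Gaa, the lysosomal acid glucosidase (r = 0.964). Vwf itself fell by 0.66 ± 0.17 with LPS (adjusted p = 0.0324) and by 1.11 ± 0.17 with oxPAPC (adjusted p = 0.00193). In the incubated arrays Stab1 correlated with the mean of the endothelial markers at r = 0.90, with that of the macrophage markers at 0.72 and with that of the smooth muscle markers at −0.69, over 12 arrays that share 4 group means. In the 10 fresh arrays these values were 0.30, 0.39 and −0.79. Endothelial markers fell in 5 of 16 tested with LPS (median −0.53), in 10 of 16 with oxPAPC (median −0.98) and in 1 of 16 with oxLDL (median −0.06), while smooth muscle markers rose in 3 of 13, 10 of 13 and 0 of 13. Over all genes, 5.68%, 12.9% and 2.07% were called lower and 3.36%, 8.34% and 0.742% higher. With the smooth muscle or the macrophage mean as a covariate, Stab1 was −0.92 or −0.81 with LPS (adjusted p = 0.0743 and 0.206) and −1.34 or −1.20 with oxPAPC (0.0994 and 0.085), and the calls ended. These marker means differ between the groups, so the fits cannot separate them from treatment. No fit used the endothelial mean as a covariate, and the part of these shifts in the fall of Stab1 was not tested. Of the 5 lymphatic markers on the arrays, Prox1 and Reln averaged below the 40th percentile in all 6 groups. The other 3, Lyve1, Pdpn and Flt4, averaged above it in all 6. Stab1 correlated with the lymphatic marker mean at r = 0.575 in the incubated and 0.419 in the fresh arrays.

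**Figure D3:**
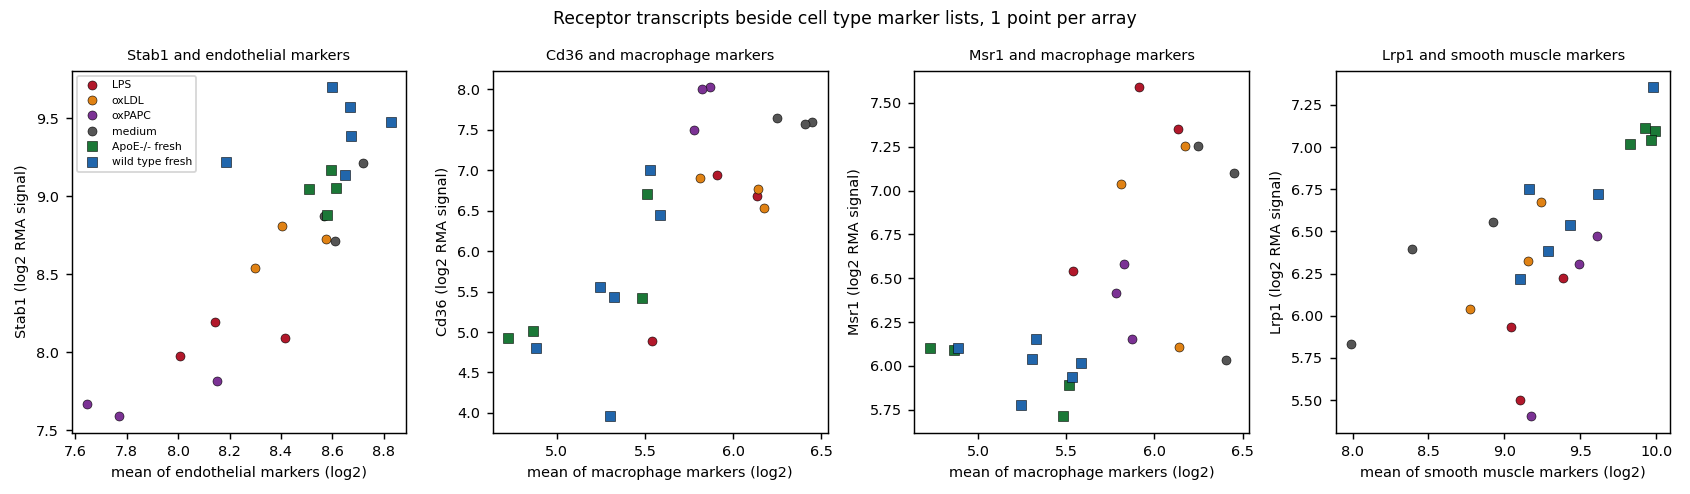
Log2 signal of a receptor (y axis) against the mean log2 signal of a cell type marker list (x axis), with 1 point per array and colours for the 6 groups, circles for incubated and squares for fresh arrays. Stab1 follows the endothelial markers among incubated arrays (r = 0.90) and less closely among fresh arrays (0.30), Lrp1 follows the smooth muscle markers among fresh arrays, and Msr1 does not follow the macrophage markers within either set.

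Cd36, the class B receptor for oxidized phospholipids and long-chain fatty acids, rose with incubation and fell with LPS, and no change was detected with oxPAPC. It measured 4.89, 6.68 and 6.94 with LPS, 6.76, 6.90 and 6.54 with oxLDL, 8.03, 7.49 and 8.01 with oxPAPC, and 7.60, 7.65 and 7.58 in medium. Fresh ApoE -/- intima gave 5.01, 4.93, 6.71 and 5.42, and fresh wild-type intima gave a lowest, median and highest value of 3.96, 5.49 and 7.00. The medium arrays were almost equal, all LPS and oxLDL arrays lay under them, and the fresh arrays were widely spread but all under medium. Medium exceeded fresh wild type by 2.07 ± 0.54 (4.21-fold, adjusted p = 0.00685), and 1.76 to 2.37 with each array left out. Macrophage markers rose in the same comparison (11 of 12 tested, median 1.28), where 24.3% of all genes rose (median −0.13). Of the 15 markers, 8 averaged above the 40th percentile in fresh wild type and 13 in medium, so part of that count came through medium and carries no weight. Cd36 correlated with the marker mean at r = 0.64 in the 10 fresh and 0.40 in the 12 incubated arrays. With that mean as a covariate the difference was −0.74 ± 1.24 (limma, adjusted p = 0.728). The mean was 4.88 to 5.58 in fresh wild type and 6.25 to 6.45 in medium, so this fit cannot separate it from incubation. The platelet transcript Ppbp was lower in ApoE -/- intima (−2.93). Its ApoE -/- mean was below the 40th percentile, so this difference carries no weight. Cd36, which platelets also carry, correlated with the erythroid and platelet marker mean at −0.11 in the fresh arrays. A platelet part in the Cd36 signal was not tested. ApoE -/- and wild type differed in Cd36 by −0.02, with a 95% interval of −1.20 to 1.16.

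LPS lowered Cd36 by 1.44 ± 0.40 relative to medium (2.71-fold, adjusted p = 0.0463). This call was at the edge of the threshold. It ended without medium replicate 9, 10 or 11 (adjusted p = 0.113, 0.0994 and 0.0978) or LPS replicate 4 (0.0596), and without LPS replicate 3, the lowest array at 4.89, the difference was −0.80 ± 0.19 (adjusted p = 0.0462). It also ended on cyclic loess values (0.0585), after median centring (0.0501), with no level filter (0.0603), with all 22 arrays in 1 fit (0.118) and with the macrophage or smooth muscle covariate (0.732 and 0.173). With oxLDL, Cd36 was lower than in medium on every array (−0.87 ± 0.40, 95% interval −1.76 to 0.01), but the adjusted p was 0.234. oxPAPC gave 0.24 ± 0.40 (interval −0.65 to 1.12). Between stimuli, Cd36 was lower with LPS than with oxPAPC by 1.67 ± 0.40 (adjusted p = 0.0258), a call that ended without oxPAPC replicate 11 or 12 (0.0953 and 0.0568) and held without replicate 13 (−1.59, adjusted p = 0.042). Without LPS replicate 3 this difference was −1.03 ± 0.19 (adjusted p = 0.0143). oxLDL lay 1.11 ± 0.40 under oxPAPC (adjusted p = 0.0914).

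Another probe set of Cd36, 1423166_at, did not follow the main probe set, 1450883_a_at, with oxLDL. It gave −0.01 ± 0.34 with oxLDL and −1.07 ± 0.34 with LPS relative to medium (adjusted p = 0.0692). It lay above the 40th percentile on 3 of 3 medium arrays and 0 of 6 fresh wild-type arrays, so no difference between these is given. On LPS arrays it was above the percentile on 1 of 3. It was lower with LPS than with oxPAPC by 1.22 ± 0.34 (adjusted p = 0.0463). The third, 1450884_at, lay below the 40th percentile in all 6 groups.

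Among 16 tested ligands, membrane partners and fatty acid carriers of CD36, 4 rose and 6 fell in medium against fresh wild type (median −0.15, against −0.13 over all genes). Pparg, the nuclear receptor that induces Cd36 in macrophages, rose by 1.90 ± 0.16, where the fresh mean of 3.92 was below the 40th percentile. Its place in the count therefore rests on the medium level and carries no weight. Cav2, a caveolar coat protein, fell by 1.66 ± 0.14 and Tlr2, a co-receptor, rose by 1.29 ± 0.14. With LPS, 1 of 16 rose and 2 fell, namely Itgb1 (0.46 ± 0.11), Fabp5, a fatty acid carrier of endothelium and macrophages (−1.94 ± 0.24), and Lpl, lipoprotein lipase (−1.41 ± 0.29). Fabp5 was the single list gene called with oxLDL (−1.36 ± 0.24, adjusted p = 0.0179). With oxPAPC, 2 rose and 3 fell, led by Fabp5 (−2.20 ± 0.24), Tlr2 (−1.11 ± 0.31) and Lpl (0.95 ± 0.29). Lpl, like Cd36, was lower with LPS than with oxPAPC (−2.36 ± 0.29, adjusted p = 0.000759). In ApoE -/- intima limma called none of 15, and the smallest p was that of Slc27a1, a fatty acid transporter (0.46 ± 0.16, adjusted p = 0.178). The genes most like Cd36 over 22 arrays were Otulinl (r = 0.845) and Sap30 (r = 0.819).

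Msr1, the class A receptor for acetylated LDL, was higher after incubation and highest on average with LPS, with a wide spread. It measured 6.54, 7.35 and 7.59 with LPS, 6.11, 7.04 and 7.25 with oxLDL, 6.15, 6.42 and 6.58 with oxPAPC, and 7.10, 7.25 and 6.03 in medium. Fresh ApoE -/- intima gave 6.09, 6.10, 5.89 and 5.71, and fresh wild-type intima 5.78, 6.03 and 6.16 as lowest, median and highest. Medium exceeded fresh wild type by 0.79 ± 0.23 (adjusted p = 0.0127), yet medium replicate 11, at 6.03, lay inside the fresh range. The call ended without medium replicate 9 or 10 (0.64 and 0.56, adjusted p = 0.0689 and 0.0741), and without replicate 11 the difference was 1.17 ± 0.13. LPS differed from medium by 0.36 (95% interval −0.45 to 1.18), oxLDL by 0.00 (−0.81 to 0.82) and oxPAPC by −0.41 (−1.23 to 0.40). ApoE -/- and wild type differed by −0.05 (−0.30 to 0.19).

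The other detected probe sets of Msr1 were also higher on average with LPS than in medium, and none of the 3 was called. Probe set 1422062_at gave 5.75, 6.74 and 7.42 with LPS as lowest, middle and highest array, against 5.28, 5.40 and 5.57 in medium, so these groups did not overlap. Its differences were 1.22 ± 0.40 from medium (adjusted p = 0.079), 1.69 ± 0.40 from oxPAPC (adjusted p = 0.0259) and 1.41 ± 0.40 from oxLDL (adjusted p = 0.0663). Probe set 1425434_a_at measured 4.91, 5.24 and 5.18 with LPS, against 4.57, 4.21 and 4.55 in medium. It was above the 40th percentile on all 3 LPS arrays, on 1 of 3 oxPAPC arrays and on no oxLDL or medium array. It entered the fit only through LPS, so its differences are not given. The main probe set, 1448061_at, gave 0.78 ± 0.37 for LPS against oxPAPC (adjusted p = 0.217). Which transcript forms these probe sets match was not analysed here. The fourth probe set, 1425435_at, averaged below the 40th percentile in all 6 groups. Msr1 correlated with the macrophage marker mean at r = 0.13 in the 12 incubated and −0.53 in the 10 fresh arrays, and its nearest genes over 22 arrays were Ehd3 (r = 0.887) and Rasip1 (r = 0.867), a regulator of endothelial junctions.

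**Figure D4:**
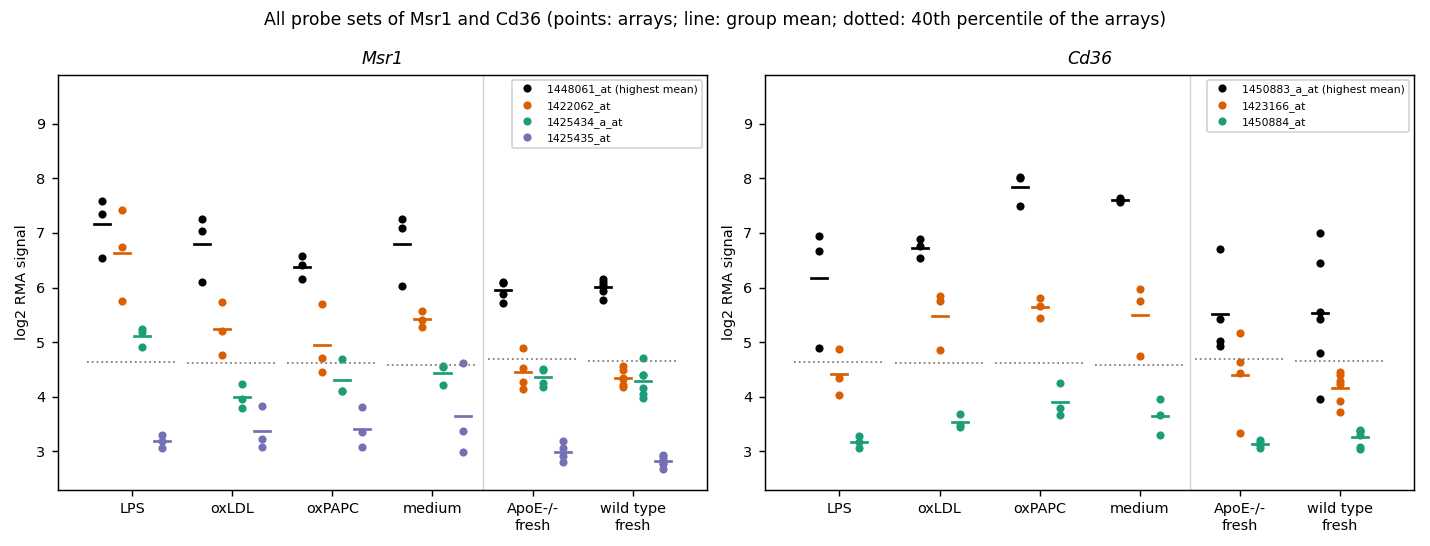
Log2 signal (y axis) of every probe set of Msr1 (left) and Cd36 (right) on the 22 arrays, by group (x axis). Points are arrays, short lines are group means and dotted lines are the mean 40th percentile. For Msr1, 1422062_at and 1425434_a_at are highest with LPS, while 1448061_at overlaps between LPS and medium. For Cd36, 1423166_at has nearly the same mean with oxLDL as in medium (5.48 and 5.49), whereas 1450883_a_at is lower with oxLDL (6.73 and 7.61).

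Marco, the other class A receptor, stayed near background. It lay above the 40th percentile on 17 of 22 arrays and ranged only from 4.54 to 5.18. Its values were 4.79, 4.82 and 4.80 with LPS, 4.80, 4.89 and 5.18 with oxLDL, 5.03, 4.72 and 4.79 with oxPAPC, and 4.60, 4.70 and 4.56 in medium. All 9 stimulated arrays were above all medium arrays, by 0.19 ± 0.14, 0.34 ± 0.14 and 0.23 ± 0.14 on average, and none of these differences was called (adjusted p = 0.403, 0.188 and 0.256). ApoE -/- intima gave 4.87, 4.84, 4.66 and 5.08, against 4.54, 4.64 and 4.89 as lowest, median and highest of wild type, a difference of 0.20 ± 0.11 (adjusted p = 0.361). Its nearest genes were Arcn1 (r = 0.772) and Eif2b1 (r = 0.744), the lowest likeness found for any of the 8 receptors.

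The other scavenger receptors differed between medium and fresh wild-type intima in both directions. Of 8 tested, 4 rose and 3 fell in medium against fresh wild type (median 0.76, against −0.13 over all genes). Cd68, a macrophage lysosomal glycoprotein, rose by 2.29 ± 0.25 and Clec7a, the beta-glucan receptor dectin-1, by 2.06 ± 0.29, both with fresh means below the 40th percentile. Scara5, the ferritin receptor, fell by 2.61 ± 0.38 to below that level. These differences depend on a signal near background in the lower group, so their places in the count carry no weight. With LPS, Cxcl16, a membrane chemokine that binds oxidized LDL, rose by 0.81 ± 0.17 and Cd68 fell by 1.09 ± 0.24 (1 and 1 of 9). With oxPAPC none of 9 rose and 4 fell, led by Scara3 (−1.31 ± 0.22), Cd68 (−0.96 ± 0.24) and Cxcl16 (−0.90 ± 0.17). Cxcl16 was higher with LPS than with oxPAPC by 1.71 ± 0.17 (adjusted p = 0.000277). By limma none of 9 was called with oxLDL and none of 6 in ApoE -/- intima, where Scara3 had the smallest p in both (−0.67 ± 0.22, adjusted p = 0.111, and −0.72 ± 0.15, adjusted p = 0.0687). Macrophage markers fell in 4 of 14 tested with LPS, 7 of 14 with oxPAPC and 1 of 14 with oxLDL, and Cd68 is on that list as well. Over all genes 5.68%, 12.9% and 2.07% fell.

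Scarb1, the HDL receptor SR-BI, lay near background on most arrays, above the 40th percentile on 4 of 22. It measured 4.56, 4.61 and 4.58 with LPS, 4.71, 4.91 and 4.87 with oxLDL, 4.51, 4.51 and 4.35 with oxPAPC, and 4.73, 4.51 and 4.40 in medium. All 3 oxLDL arrays and 1 medium array were the ones above the percentile, so Scarb1 entered the fits only through oxLDL and carries no weight there as a difference. oxLDL exceeded medium by 0.29 ± 0.13 (adjusted p = 0.223) and oxPAPC by 0.37 ± 0.13 (adjusted p = 0.0766), and the difference from oxPAPC was called only with all 22 arrays in 1 fit (adjusted p = 0.045). In fresh tissue Scarb1 entered no fit. It averaged 4.39 ± 0.09 in ApoE -/- and 4.38 ± 0.17 in wild-type intima (SD, n = 4 and 6, two-sided exact permutation p = 0.848 of 210 splits), and medium gave 4.54 ± 0.17, against 4.38 ± 0.17 in fresh wild type (n = 3 and 6, exact permutation p = 0.19 of 84 splits). Its nearest genes were Tspan8 (r = 0.831) and Ncoa5 (r = 0.825).

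Among the genes that handle HDL cholesterol with SCARB1, Abcg1, the exporter of cholesterol to HDL, moved in 6 of the 8 comparisons. It was the single list gene called in ApoE -/- intima (1.32 ± 0.21, adjusted p = 0.0393, 1 of 6 tested). It was 2.83-fold higher in medium than in fresh wild type (adjusted p = 0.000452), and it was lower than in medium with LPS (−1.04 ± 0.26, adjusted p = 0.0341) and with oxPAPC (−1.32 ± 0.26, adjusted p = 0.00701). It was lower with LPS than with oxLDL (−1.11 ± 0.26) and higher with oxLDL than with oxPAPC (1.39 ± 0.26). In medium against fresh wild type 2 of 6 rose and 1 fell, the others being the scaffold proteins Slc9a3r1 (0.69 ± 0.22) and Slc9a3r2 (−1.66 ± 0.15). With oxLDL against medium limma called none of 6, and Nr1h3, the oxysterol receptor LXR-alpha, had the smallest p (0.21 ± 0.12, adjusted p = 0.338).

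Scarb2, the lysosomal membrane protein LIMP-2 that delivers glucocerebrosidase, fell with incubation, within a range of 0.95 over all arrays. It measured 9.22, 9.12 and 9.35 with LPS, 9.40, 9.41 and 9.13 with oxLDL, 9.41, 9.37 and 9.19 with oxPAPC, and 9.42, 9.64 and 9.54 in medium. Fresh ApoE -/- intima gave 9.86, 9.95, 10.03 and 9.78, and fresh wild-type intima 9.78, 9.97 and 10.07 as lowest, median and highest. On this probe set, 1454704_at, all 12 incubated arrays lay under all 10 fresh arrays. Medium was 0.42 ± 0.10 below fresh wild type (adjusted p = 0.0052, and −0.48 to −0.37 with each array left out), but the second probe set, 1460235_at, gave −0.23 ± 0.17 (adjusted p = 0.278). On 1454704_at each stimulus lay under medium without overlap, by 0.30 ± 0.14, 0.22 ± 0.14 and 0.21 ± 0.14 for LPS, oxLDL and oxPAPC. The adjusted p-values in limma were 0.171, 0.377 and 0.284. On 1460235_at the same differences were −0.08 ± 0.19, 0.20 ± 0.19 and −0.12 ± 0.19, and none was called. The oxLDL arrays of 1460235_at, at 8.90 to 9.09, overlapped medium (8.57 to 8.98) and fresh wild type (8.70 to 9.45). ApoE -/- and wild type differed on 1454704_at by −0.05 (95% interval −0.25 to 0.15). The nearest genes of Scarb2 were Decr1, a mitochondrial enzyme of fatty acid oxidation (r = 0.966), and Gas6 (r = 0.954). Within the 12 incubated arrays these were 0.81 and 0.80, and within the 10 fresh arrays 0.69 and 0.45.

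Of 14 tested lysosomal and sterol-unloading genes, 6 fell and 2 rose in medium against fresh wild type (median −0.22, against −0.13 over all genes), where 34.4% of all genes fell and 24.3% rose. The largest were Mcoln1, a lysosomal calcium channel (−0.60 ± 0.21), Ctsb, cathepsin B (0.49 ± 0.11), and Tfeb, the transcription factor of lysosomal genes (−0.48 ± 0.15, below the 40th percentile in both groups). With LPS, Lipa, which cleaves lysosomal cholesteryl esters, fell by 0.77 ± 0.18 and the hexosaminidase subunit Hexa by 0.72 ± 0.18 (2 of 13). With oxPAPC, Hexa (−0.79 ± 0.18), the sterol carrier Npc2 (−0.56 ± 0.13) and Lamp2 (−0.54 ± 0.14) led 4 falls of 13. By limma none of 13 was called with oxLDL, where Plin2 of lipid droplets had the smallest p (−0.53 ± 0.14, adjusted p = 0.0639), and none of 14 in ApoE -/- intima, where it was Psap (0.31 ± 0.14, adjusted p = 0.263).

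Lrp1, the endocytic receptor for lipoprotein remnants and protease complexes, was called in none of the 8 comparisons by limma, with an unadjusted p under 0.05 only in ApoE -/- against wild type. It measured 5.50, 5.93 and 6.22 with LPS, 6.67, 6.32 and 6.04 with oxLDL, 6.47, 6.31 and 5.40 with oxPAPC, and 5.83, 6.39 and 6.56 in medium. Fresh ApoE -/- intima gave 7.09, 7.04, 7.02 and 7.11, and fresh wild-type intima 6.22, 6.63 and 7.36 as lowest, median and highest. The 4 knockout arrays were close together and above 5 of the 6 wild-type arrays. The difference was 0.40 ± 0.18 (95% interval 0.00 to 0.81, adjusted p = 0.271). In the same 10 arrays Lrp1 correlated with the smooth muscle marker mean at r = 0.90, and wild-type replicate 12, the array that overlapped the knockout values of Lrp1, had the highest smooth muscle mean of its group. The smooth muscle marker difference between the genotypes had a median of 0.48, with 0 of 13 called by limma. With the smooth muscle mean as a covariate, 0 members had an unadjusted p under 0.05 in this comparison (limma), against 2 without it. Over all genes, 672 of 7264 then had an unadjusted p under 0.05 instead of 1328, and 1 was called instead of 31. The smooth muscle mean itself differed between the genotypes, so its part in the Lrp1 difference was not tested by this fit. Medium differed from fresh wild type by −0.40 ± 0.24 (adjusted p = 0.173). LPS, oxLDL and oxPAPC differed from medium by −0.38, 0.08 and −0.20, with 95% intervals of −1.03 to 0.28, −0.57 to 0.74 and −0.85 to 0.45. The nearest genes of Lrp1 were Ramp1, a receptor partner of vascular smooth muscle (r = 0.888), and Mfhas1 (r = 0.882).

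Relatives of LRP1 in the LDL receptor family and their adaptors were called in 4 of the 5 comparisons set against medium or fresh wild type. In medium against fresh wild type 1 of 10 tested rose and 3 fell, with Dab2, an endocytic adaptor, up by 1.46 ± 0.28, the sorting receptor Sorl1 lower (−1.35 ± 0.31), and Lrpap1, the chaperone of LRP1, lower (−0.85 ± 0.10). With LPS none of 10 rose and 3 fell (median −0.55, against −0.03 over all genes), namely Mylip, which marks the LDL receptor for degradation (−1.33 ± 0.30), Lrp5 (−1.08 ± 0.20) and Lrp10 (−0.78 ± 0.18). With oxPAPC 2 rose and 4 fell, led by Sorl1 (1.74 ± 0.39), the VLDL receptor Vldlr (1.44 ± 0.32) and Dab2 (−1.41 ± 0.39). The Wnt co-receptor Lrp6 fell with oxLDL (−0.73 ± 0.16, adjusted p = 0.0373, 1 of 10). ApoE -/- intima showed no call by limma among 10, with the smallest p for Mylip (0.60 ± 0.18, adjusted p = 0.14).

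Ligands of LRP1 held the largest single rises of the companion lists. In medium against fresh wild type 4 of 12 tested rose and 5 fell. Plau, urokinase, rose by 4.43 ± 0.21, Plat, tissue plasminogen activator, by 3.07 ± 0.24, and Plaur, the urokinase receptor, by 3.07 ± 0.10. With LPS against medium 2 of 13 rose and 1 fell. Mmp13, collagenase-3, averaged 7.63 with LPS and 4.06 in medium, 3.64 with oxLDL and 3.79 with oxPAPC, the latter all below the 40th percentile. Its difference of 3.57 ± 0.34 from medium thus came through LPS, and its place in the count carries no weight. Plau rose by 0.98 ± 0.20 and Mmp2 fell by 0.88 ± 0.20. With oxPAPC, 1 of 13 rose and 2 fell, Plat by −1.85 ± 0.37 and Mmp2 by −0.87 ± 0.20, with Pdgfrb higher by 0.78 ± 0.25. By limma none of 13 was called with oxLDL, where Plau had the smallest p (0.52 ± 0.20, adjusted p = 0.161), and none of 12 in ApoE -/- intima, where it was again Psap.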

How the data were processed

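The deposited values are log2 signals of 22626 Affymetrix probe sets on 22 arrays, made by the authors with RMA (background correction, quantile normalization and summary per probe set) and affy, as the notes list them, per the submitters' processing notes. Versions, the genome build and whether all arrays were normalized together are not given in the sources used here. The number of arrays limits the precision, and array values give no read depth.

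Probe sets with 1 gene symbol (18003) were kept, each gene taking its probe set with the highest mean (11807 genes). A gene entered a fit where it exceeded the 40th percentile on a number of arrays no smaller than the smallest group. Fresh groups, incubated groups, and medium with fresh wild type were each fitted with limma 3.58.1 in R 4.3.3 (lmFit, eBayes), with p-values adjusted by Benjamini-Hochberg over every gene in the fit and a threshold of 0.05. Members that missed the filter got a two-sided exact permutation test. The fitting steps were tested on simulated data with known shifts. For LPS against medium, 14.9% of shifts of 0.5, 68.7% of shifts of 1 and 98.5% of shifts of 2 were recovered. Of shifts of 0.5, 50.7% were recovered for ApoE -/- against wild type and 37.3% for medium against fresh wild type.

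All 8 members are named throughout. Of each companion list up to 3 called genes with the largest difference are named per comparison, or the gene with the smallest p where none was called, and the 2 genes most like each member by Pearson r. The marker Ppbp and repeats in other comparisons (Lpl, Cxcl16, Abcg1) were picked after their values were seen. Members and lists were chosen with earlier results of these data known. Alternatives were cyclic loess, median centring, no filter, every probe set fitted on its own, all arrays in 1 fit, a mean-variance trend, marker means as covariates, and each array left out.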

Additional observations from a re-analysis of the deposited data

How the results depend on the processing

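Of 838 single-gene values recomputed under another setting, 785 kept their side of the threshold, of which 47 turned sign with no call in either setting and the others kept their direction, 50 lost the call, 2 gained one and 1 reversed. The reversal was Cd36 in medium against fresh wild type, −0.74 with the macrophage marker mean as a covariate. It was not called there, and its standard error was wider than without the covariate. The gains were Scarb1 for oxLDL against oxPAPC with all 22 arrays in 1 fit (0.37, adjusted p = 0.045) and Cd36 for oxLDL against oxPAPC with the macrophage covariate (−1.52, adjusted p = 0.0413). Scarb1 passed the level filter only through oxLDL, so its gain carries no weight. The number of receptors called with LPS against medium, 2, was 1 with cyclic loess, median centring, no filter or all 22 arrays in 1 fit, and 0 with either covariate. With oxPAPC against medium it was 0 with either covariate, instead of 2 (limma, 3 members at an unadjusted p under 0.05 with each), and in medium against fresh wild type it was 1, Olr1, with either, instead of 5. Olr1 entered that comparison only through medium, so this remaining call carries no weight. For LPS against oxLDL the number of receptors called was 0 with cyclic loess and with either covariate, instead of 1. For LPS against oxPAPC it was 1 with all 22 arrays or the smooth muscle covariate, and for oxLDL against oxPAPC 1 with the smooth muscle covariate, instead of 2 each. The covariates cut calls over all genes too: with the macrophage and the smooth muscle covariate, 7 and 93 genes were called with LPS instead of 683, 6 and 15 with oxLDL instead of 212, 7 and 0 with oxPAPC instead of 1606 (1295 and 1058 at an unadjusted p under 0.05), and 1026 and 2233 in medium against fresh wild type instead of 4410. In ApoE -/- against wild type, 13 and 1 genes were called with these covariates instead of 31. The marker means differ between the groups themselves, so the cause of the lost calls was not tested. With each array left out, the receptors called numbered 1 to 2 with LPS, 2 to 2 with oxPAPC, 0 to 0 with oxLDL, 0 to 0 in ApoE -/-, 3 to 5 in medium against fresh wild type, 0 to 0 for LPS against oxLDL, 0 to 2 for LPS against oxPAPC and 1 to 2 for oxLDL against oxPAPC. No paired analysis was possible because the groups compared share fewer than 2 replicate numbers. Groups of 3 arrays, the unstated number of animals per array and signals near background for Scarb1, Marco and fresh Olr1 limit what these data can show.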
